A study of Mus musculus with 17 samples.

Results

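The endpoint of the KPT-330 experiment set organoids treated until day 6 against untreated organoids of the same day. It takes in 4 of the 17 Seq-Well S3 libraries and 4568 of the 19877 cells that the authors kept. The libraries were chosen by their labels alone, which give the medium and the day, and their measured values played no part. The treated group, ENR+CD+KPT-330 at day 6, had 2 libraries with 915 and 1001 cells, and the control group, ENR+CD at day 6, had 2 libraries with 1267 and 1385 cells. The organoids were grown from small intestinal crypts of wild-type C57BL/6 mice in a medium with EGF, Noggin and R-spondin 1 (ENR), first with CHIR99021 and valproic acid (ENR+CV), which hold them in a stem-cell-rich state. They were then moved to ENR with CHIR99021, an activator of Wnt signalling, and DAPT, which blocks Notch activation (ENR+CD), and this pair is used to push stem cells towards the Paneth fate. All 4 libraries share ENR, CHIR99021 and DAPT, and the labels separate the groups by KPT-330 alone, given at 160 nM. Each library pooled the cells of many organoids, so it is the library that serves as the replicate. The labels do not say whether replicates 1 and 2 came from separate cultures or animals, and p-values therefore measure only the spread between these libraries, which may be technical.

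Seq-Well S3 catches single cells with barcoded beads in small wells and counts their transcripts by unique molecular identifiers (UMIs). KPT-330 inhibits XPO1, the exportin that carries proteins with a leucine-rich nuclear export signal out of the nucleus. Paneth cells are the granulated cells of the crypt base that secrete lysozyme and defensins and feed signals to neighbouring stem cells. Goblet cells make mucus, enteroendocrine cells make hormones, and these lineages arise from a shared secretory progenitor. The integrated stress response is the programme in which phosphorylation of eIF2alpha slows protein synthesis while the transcription factor ATF4 is made and switches on genes for amino acid supply and cell stress.

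The libraries differed in depth. The 2 control libraries held 12433109 and 4436094 UMIs, with median depths of 8463 and 2701 per cell. Those with KPT-330 held 4465904 and 4002823, with median depths of 4189 and 3390. KPT-330 replicate 1 had the highest median share of mitochondrial UMIs per cell, 16.5%, against 6.31% in KPT-330 replicate 2 and 10.4% and 7.37% in the controls. No cell barcode was shared between the day 6 libraries, and 14 pairs of libraries were found to share barcodes over the whole series. Genes of Paneth cells were found in all libraries. Fibroblast markers, a list of 12 genes, took 0.0114% and 0.0122% of control UMIs and 0.00123% and 0.00380% of KPT-330 UMIs, with 3 to 7 of the 12 at 0 in a library, and among them Vim stood at 91.1 and 93.6 against 13.1 and 31.2 CPM (counts per 1000000 UMIs). Immune, endothelial, glial, erythroid and tuft markers each took at most 0.00525% of UMIs in any library. The part of these markers and of depth in the results was not tested.

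Counts of all kept cells were summed per library and compared with edgeR's quasi-likelihood test, with Benjamini-Hochberg adjustment over the 11548 genes that passed a filter on low counts and a threshold of 0.05. With KPT-330, 100 genes were raised (0.866% of the genes tested) and 70 were lowered (0.606%), 1.47% in all. In each of these 170 genes both KPT-330 libraries lay on the same side of both control libraries, as did 24.7% of all tested genes on the higher side and 23.9% on the lower side. The values that follow are counts per 1000000 UMIs after TMM scaling (CPM), given for control replicates 1 and 2 and then KPT-330 replicates 1 and 2, and changes are log2 fold changes of KPT-330 over control with their standard error (SE). The number of calls depended on which libraries entered the fit. Without control replicate 1 it fell to 10 genes and without control replicate 2 to 10, while it was 938 without KPT-330 replicate 1 and 1254 without KPT-330 replicate 2. Of these 10 and 10 genes, 2 and 3 were raised. With each cell counted equally in limma, which moved the median of all genes to -0.37, 1 gene was raised and 45 were lowered. In fits without a library the lone library of a group is assumed to vary like the other group. Over the tested genes, log2 counts per 1000000 UMIs correlated at 0.979 between the controls and at 0.956 between the KPT-330 libraries. Between a control and a KPT-330 library the correlation ran from 0.936 to 0.960, so the treated libraries were no more alike than some pairs across groups. Gif, Igfbp4, Neurog3, Cckar and Mki67 passed the threshold whichever library was left out. In summed cells, fewer cells of a type and less RNA per cell cannot be told apart.

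**Figure D1:**
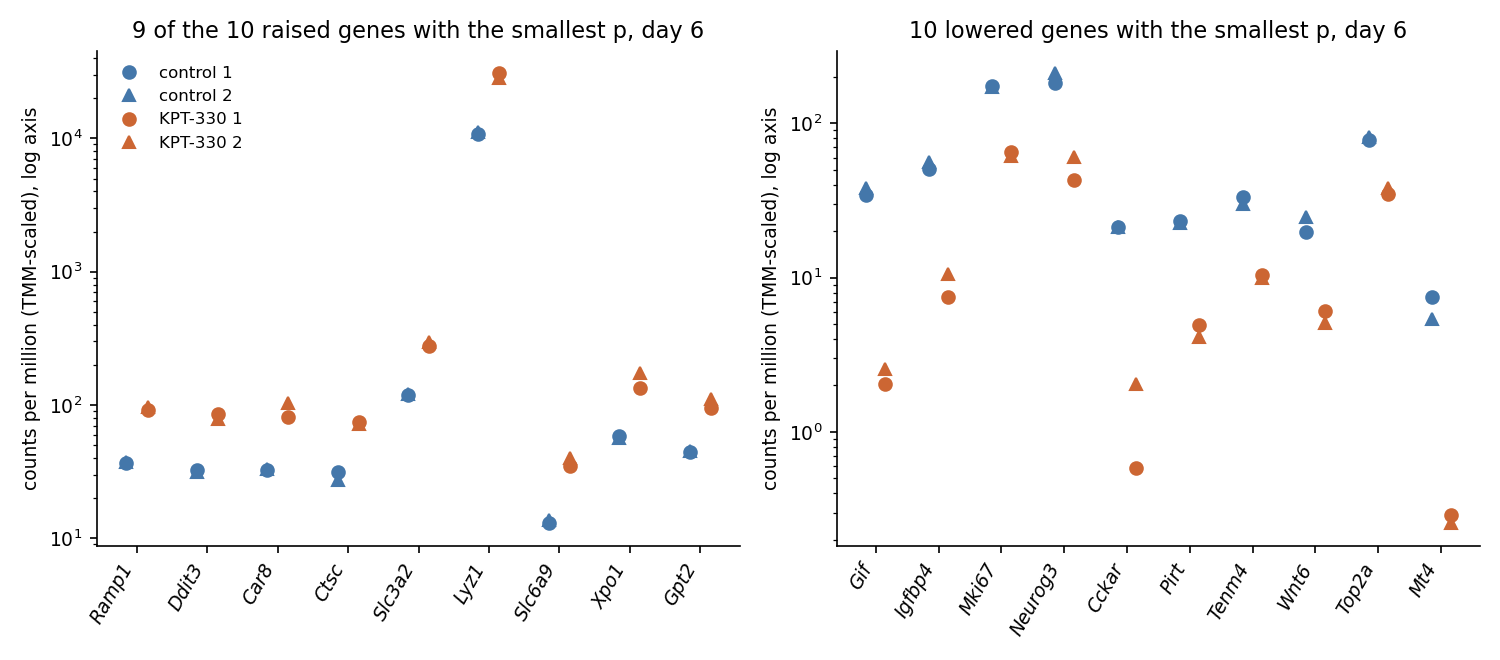
Level in each day 6 library of 9 of the 10 raised genes (left) and the 10 lowered genes (right) with the smallest p, in CPM on a log axis (circles, replicate 1; triangles, replicate 2; blue, control; orange, KPT-330). The genes were picked for a small p and for groups that do not overlap, which also favours close replicates. The replicates of a group sit close together except for Cckar, at 0.581 and 2.05 with KPT-330. The levels run from Lyz1 at 10731 to 11211 in control and 28603 to 30788 with KPT-330 down to Mt4, which had 2 UMIs in both KPT-330 libraries together.

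Xpo1, the gene of the exportin that KPT-330 inhibits, was raised at the endpoint. Its level was 58.9 and 57.0 CPM in the control libraries and 133 and 173 CPM in the KPT-330 libraries. Both treated libraries lay above both controls, a log2 change of 1.40 (SE 0.17, edgeR adjusted p = 0.0327). The gene lies at chr11:23256041-23298249 in mm10. Of the 32 exportins, importins and Ran cycle genes tested, Xpo1 was the only member that passed, where 1.47% of all genes did. The median change of that list was -0.02, against 0.01 over all genes. Kpnb1, the importin beta that carries cargo into the nucleus, stood at 245 and 228 against 200 and 195 CPM (log2 change -0.26, SE 0.15, edgeR adjusted p = 0.406). Xpo1 lost its call when control replicate 1 or control replicate 2 was left out, with log2 changes of 1.18 to 1.58 over the fits without a library.

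The genes of the integrated stress response were raised together in the summed cells, though few were called within a cell class, as given below. Of 33 listed genes tested, 12 rose and 0 fell, where 0.866% of all genes rose. The median log2 change was 0.70 against 0.01 over all genes. In 32 of the 33 both KPT-330 libraries lay above both controls, as in 24.7% of all genes. Ddit3, which encodes the stress-induced transcription factor CHOP, was at 32.6 and 31.6 CPM in control and at 86.2 and 78.1 CPM with KPT-330 (log2 change 1.35, SE 0.15, edgeR adjusted p = 0.0290). Chac1, an enzyme that degrades glutathione, was at 31.7 and 42.5 against 95.8 and 126 CPM, and its log2 change of 1.60 was the largest of the 12. Trib3, a pseudokinase that acts as a brake on the pathway, was at 16.5 and 13.6 against 33.4 and 31.5 CPM. In each of these genes both treated libraries lay above both controls.

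Of the 12 raised genes, 4 act in the supply of amino acids or their loading onto tRNA. Slc3a2, the heavy chain shared by several amino acid exchangers, was at 118 and 120.4 CPM in control and at 278 and 295 CPM with KPT-330 (log2 change 1.26, SE 0.15, edgeR adjusted p = 0.0327). Slc7a1, a transporter of arginine and lysine, rose by 1.18 (SE 0.16), Psat1, of serine synthesis, by 1.39 (SE 0.22), and Nars, which charges the asparagine tRNA, by 0.83 (SE 0.15), all on the log2 scale. The remaining raised members were the transcription factor Atf3 at 810.3 and 925 against 1605 and 1567 CPM, the stress regulator Nupr1 at 1164 and 1088 against 2727 and 2604 CPM, the translation inhibitor Eif4ebp1, the secreted cytokine Gdf15 and the lipoprotein receptor Vldlr. Nupr1 is also counted in the list of Paneth granule genes below, and it is among the 10 leading genes of a cluster of Paneth-like cells. Atf4 itself, which is controlled mainly at translation, stood at 529 and 490.3 against 731 and 641 CPM and did not pass (log2 change 0.43, SE 0.16, edgeR adjusted p = 0.213). Without control replicate 1, 0 of the 33 passed in edgeR, and without control replicate 2 only Chac1 did. Without KPT-330 replicate 1 there were 21 calls and without KPT-330 replicate 2 there were 15. At an unadjusted level the full fit placed 2147 of all genes under 0.05, before the adjustment over all genes.

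ATF4 is known to act through a composite element that begins with the letters TGATGNAA. These letters were searched on both strands of RefSeq promoter windows, from 250 bases before to 50 bases after each gene's start in GRCm38.p6, and the windows are shown because the genes moved together. They were present in 8 of the 72 raised genes with a window (11.1%), in 1 of 52 lowered genes (1.92%), in 225 of 8695 tested genes with a window (2.59%) and in 4.51% of all 27025 genes with a window. Among the listed genes of the response they were present in 5 of 10 raised genes and in 5 of 18 that did not pass. These 5 raised genes are among the 8 raised genes with a match, so the 11.1% rests largely on the list. Because the list is drawn from known ATF4 targets, both shares are descriptions that the choice of the list shapes. In the 4 windows printed here, 30 bases each and read along the strand of the gene, the capitals mark the match, which in all 4 lies on the opposite strand of the gene. The windows lie at chr1:191183425-191183454 for Atf3, chr2:119351038-119351067 for Chac1, chr19:27216809-27216838 for Vldlr and chr7:126625562-126625591 for Nupr1, with the match 110, 193, 200 and 110 bases before the start.
Atf3: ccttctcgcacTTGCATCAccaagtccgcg
Chac1: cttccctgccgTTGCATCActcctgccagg
Vldlr: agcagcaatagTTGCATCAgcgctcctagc
Nupr1: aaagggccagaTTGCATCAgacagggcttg
The capitals are the same letters in these 4 genes. In Trib3, the other raised gene of the list with a match, the match lies after the start of the gene and has another letter at the open position, and it is not printed. A match is a description of these letters and no evidence of binding.

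The genes of folding in the endoplasmic reticulum moved less and in the same direction. Of 44 tested, 41 were higher in both KPT-330 libraries than in both controls, as were 24.7% of all genes. Past the threshold 3 rose and 0 fell, where 0.866% of all genes rose, and the median log2 change was 0.48. Besides Ddit3, which is on both lists, these were Herpud1, of the degradation of misfolded proteins, at 284 and 273 against 540.3 and 628 CPM (log2 change 1.07, SE 0.16), and Edem1, which marks misfolded glycoproteins, at 75.3 and 82.1 against 165 and 162 CPM (1.06, SE 0.14). Hspa5, the main chaperone of the compartment, stood at 1881 and 1631 against 2882 and 2411 CPM and did not pass (log2 change 0.59, SE 0.17, edgeR adjusted p = 0.132). Without control replicate 1 or control replicate 2, 0 of the 44 passed, and without KPT-330 replicate 1 or replicate 2 there were 13 and 12. Heat shock proteins, with 18 tested, and NRF2 antioxidant genes, with 33 tested, gave 0 calls in edgeR and medians of -0.06 for both. At an unadjusted p under 0.05 they had 3 genes each, and DESeq2 called 0 heat shock and 2 antioxidant genes.

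**Figure D2:**
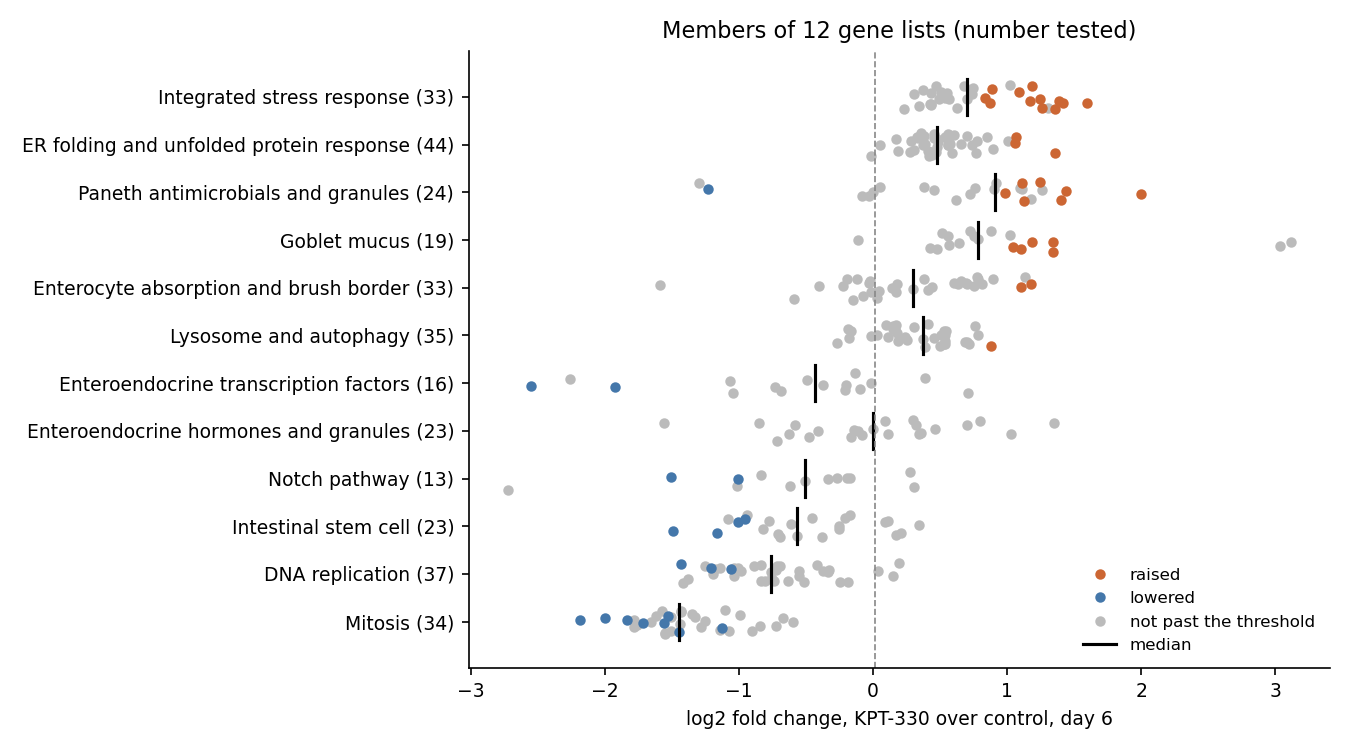
Log2 fold change of each tested member of 12 gene lists at day 6, 1 point per gene (orange, raised; blue, lowered; grey, not past the threshold), with the median of each list as a black bar, the number tested in parentheses and the median of all genes as a dashed line. The stress, folding, Paneth and goblet lists have medians of 0.70, 0.48, 0.91 and 0.78, and the mitosis list has a median of -1.44 with every member below 0.

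Paneth granule genes were raised, with exceptions. Of 24 tested, 7 rose and 1 fell, where 0.866% of all genes rose and 0.606% fell. The median log2 change was 0.91, against 0.01 over all genes. Without overlap of the groups, 16 were higher and 2 lower with KPT-330, against 24.7% and 23.9% of all genes. The list as a whole took 15% and 14.8% of control UMIs and 22.9% and 22.2% of UMIs with KPT-330. Lyz1, the lysozyme that marks Paneth cells (chr10:117287797-117292868), was at 10731 and 11211 CPM in control and at 30788 and 28603 CPM with KPT-330 (log2 change 1.44, SE 0.17, edgeR adjusted p = 0.0327). The closely related Lyz2, which macrophages also use, was at 17.5 and 22.6 against 55.2 and 49.4 CPM (1.40, SE 0.19). The treated libraries were alike for both lysozymes and did not overlap with the controls.

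Defa21 and Defa22, alpha-defensins, rose by 1.11 (SE 0.19) and 1.13 (SE 0.16), and Mmp7, the protease that activates defensins in the mouse, by 0.98 (SE 0.17). The lowered member was Pnliprp2, a lipase related to that of the pancreas, at 638 and 778 against 297 and 307 CPM (log2 change -1.23, SE 0.17, edgeR adjusted p = 0.0351). Itln1, an intelectin that binds microbial sugars, was at 36121 and 36079 against 73142 and 61570.0 CPM and just missed the threshold (log2 change 0.90, SE 0.18, edgeR adjusted p = 0.0631). Near-identical defensin copies, and Lyz1 and Lyz2, can share reads, so the split of counts between them is uncertain. Of this list 1 gene passed without control replicate 1 and 1 without control replicate 2, while 16 rose without KPT-330 replicate 1 and 13 without KPT-330 replicate 2. Goblet genes moved in the same direction. Of 19 tested, 5 rose and 0 fell, where 0.866% of all genes rose, with a median of 0.78. In 17 of the 19 both KPT-330 libraries lay above both controls, as in 24.7% of all genes. Muc2, the gel-forming mucin, was at 202 and 188 against 474 and 363 CPM (log2 change 1.10, SE 0.18, edgeR adjusted p = 0.0426). Ramp1, a receptor-modifying protein listed here with goblet genes, was at 36.7 and 37.7 against 91.7 and 97.0 CPM (1.35, SE 0.14), and Gcnt3, which branches mucin sugars, Sytl2, of vesicle release, and Lypd8, which keeps bacteria off the epithelium, also rose. None of the 19 passed in edgeR without control replicate 1 or control replicate 2, and 11 did without either KPT-330 library.

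Cell division genes were lowered. All 34 mitotic genes tested were lower in both KPT-330 libraries than in both controls, as were 23.9% of all genes. Past the threshold 8 fell and 0 rose, where 0.606% of all genes fell, and the median log2 change was -1.44. Mki67, the proliferation antigen (chr7:135689784-135716361), was at 175 and 171 CPM in control and at 65.6 and 61.2 CPM with KPT-330 (log2 change -1.45, SE 0.15, edgeR adjusted p = 0.0271). Top2a, which untangles chromosomes, was at 77.7 and 82.1 against 34.8 and 38.4 CPM (-1.12, SE 0.15), and Cenpf, a kinetochore protein, at 26.2 and 36.0 against 4.94 and 8.45 CPM (-2.18, SE 0.30). The other lowered members were Plk1, Cenpe, Kif11, Tpx2 and Ncapg, with log2 changes from -2.0 to -1.53. Of 37 S phase genes, 3 fell, the helicase subunits Mcm5 and Mcm6 and the methylation cofactor Uhrf1, by 1.21, 1.06 and 1.43 on the log2 scale, and the median was -0.76. The mitotic calls shrank to 2 without control replicate 1 and to 1 without control replicate 2, and the S phase calls to 0 in both cases.

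The regulators of entry into the cycle gave no such pattern. Of 19 G1 cyclins, kinases and inhibitors tested, 0 passed in edgeR and 0 in DESeq2, 4 had an unadjusted p under 0.05, and the median log2 change was 0.04. Ccnd1, cyclin D1, stood at 24.5 and 24.3 against 29.9 and 16.1 CPM (log2 change -0.09, SE 0.28, edgeR adjusted p = 0.906), with the controls between the treated libraries. Its kinase partners Cdk4 and Cdk6 had log2 changes of -0.65 (SE 0.24) and -0.20 (SE 0.20), and the inhibitor Cdkn1a had 0.46 (SE 0.24). Trp53, the gene of p53, was at 75 and 72.0 against 53.7 and 43.8 CPM and did not pass (log2 change -0.59, SE 0.16, edgeR adjusted p = 0.110). Among 29 p53 targets only Pmaip1, which encodes the death-promoting NOXA, rose (0.83, SE 0.15), where 0.866% of all genes rose.

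Stem-cell genes were lower. Of 23 tested, 4 fell and 0 rose, where 0.606% of all genes fell, and the median log2 change was -0.57. Without overlap of the groups, 16 were lower and 4 higher in both KPT-330 libraries, against 23.9% and 24.7% of all genes. Smoc2, a matrix protein of crypt stem cells, was at 605 and 653 against 334 and 315 CPM (log2 change -0.96, SE 0.16, edgeR adjusted p = 0.0426). The other lowered members, Nkd1, Sp5 and Tnfrsf19, are also Wnt targets, and Nkd1 and Sp5 restrain the pathway. They were at 238 and 291 against 102 and 134 CPM for Nkd1, at 74.9 and 68.3 against 35.1 and 36.1 CPM for Sp5, and at 63.9 and 93.2 against 23.5 and 31.7 CPM for Tnfrsf19. Lgr5, the receptor for R-spondin that defines these stem cells, was at 124 and 137 against 55.2 and 80.4 CPM and just missed the threshold (log2 change -0.94, SE 0.20, edgeR adjusted p = 0.0670). Of the stem-cell genes Tnfrsf19 alone passed without control replicate 1, and 0 did without control replicate 2. Wnt6, a Wnt ligand outside these lists, was at 19.7 and 24.7 against 6.10 and 5.12 CPM (log2 change -1.97, SE 0.27). Of 13 Notch pathway genes, the receptor Notch1, at 16.0 and 19.9 against 6.10 and 6.40 CPM, and the ligase Dtx4 fell, in organoids of which both groups had DAPT.

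Neurog3 and Pax4, transcription factors of early enteroendocrine cells, fell, and no hormone gene passed the threshold in edgeR. Neurog3, which commits progenitors to that lineage (chr10:62133090-62134763), was at 183 and 211 CPM in control and at 43.3 and 60.7 CPM with KPT-330 (log2 change -1.92, SE 0.20, edgeR adjusted p = 0.0271). Pax4, which acts after it, was at 17.8 and 27.4 against 2.32 and 5.12 CPM (-2.55, SE 0.40). These were the 2 calls among 16 factors, where 0.606% of all genes fell. The median log2 change of the factors was -0.43. Of 23 hormone and granule genes 0 passed in edgeR and 3 in DESeq2, 5 had an unadjusted p under 0.05, and the median was -0.00. Chga, the granule protein chromogranin A, stood at 1061 and 1338 against 567 and 1033 CPM (log2 change -0.58, SE 0.30, edgeR adjusted p = 0.363). The hormone list rested on the treated libraries, with 7 raised and 2 lowered without KPT-330 replicate 1 and 1 raised and 9 lowered without KPT-330 replicate 2. The difference between the 2 lists was not tested. Neurog3 was called without any of the 4 libraries, and Pax4 was not called without control replicate 1 or control replicate 2.

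Several of the lowered genes with the smallest p belong to none of these lists. Gif, intrinsic factor, a secreted binder of vitamin B12 (chr19:11747554-11763447), was at 34.2 and 37.9 CPM in control and at 2.03 and 2.56 CPM with KPT-330. This was 480 and 198 UMIs against 7 and 10, a log2 change of -3.95 (SE 0.26, edgeR adjusted p = 0.00600) and the smallest p of all genes. Igfbp4, which binds insulin-like growth factors, was at 50.4 and 56.3 against 7.55 and 10.5 CPM (-2.55, SE 0.21). Cckar, a receptor for cholecystokinin, was at 21.3 and 21.4 against 0.581 and 2.05 CPM (-3.96, SE 0.41), and Pirt, a regulator of TRP channels, and Tenm4, a teneurin adhesion protein, fell by 2.35 and 1.64 on the log2 scale. Mt4, a metallothionein, had 133 UMIs in control and 2 with KPT-330, a ratio of 33.4 with a 95% counting interval of 9.06 to 279. On the raised side, outside the lists, stood the carbonic anhydrase-related Car8 at 32.6 and 33.3 against 80.7 and 103 CPM, the lysosomal protease Ctsc at 31.6 and 27.4 against 75.2 and 72.4 CPM, and the glycine transporter Slc6a9 at 13.0 and 13.8 against 35.1 and 39.9 CPM. These 3 genes were picked for a small p and for groups that do not overlap, so their separation is part of the choice. Arrdc3, an arrestin-domain protein, rose from 65.5 and 70.8 to 125 and 146 CPM (0.99, SE 0.15), while Slc16a6, a monocarboxylate transporter, was at 62.1 and 32.7 against 195 and 146 CPM and did not pass (1.82, SE 0.33, edgeR adjusted p = 0.0737). Without control replicate 1, Slc16a6 was called and Arrdc3 was not, and neither was called without control replicate 2.

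Other lists gave few calls, and some rested on 1 library. Enterocyte genes had a median log2 change of 0.30 over 33 genes with 2 raised, the fructose transporter Slc2a5 and the lactase Lct, but without KPT-330 replicate 1 the median was -0.54 with 3 raised and 13 lowered, and without KPT-330 replicate 2 it was 0.78 with 20 raised and 1 lowered. Genes of drug and retinoid metabolism had a median of 0.20 over 23 genes, with 0 calls in edgeR and DESeq2 and 1 at an unadjusted p under 0.05, and medians of -0.87 and 0.80 in the same fits. Genes of the mitochondrial genome had a median of 0.81 over 10 genes with 0 calls in edgeR and DESeq2 and 0 at an unadjusted p under 0.05, and -0.32 without KPT-330 replicate 1, the library with the highest mitochondrial share. Cytosolic ribosomal proteins (45 tested), ribosome biogenesis (33 tested) and nuclear genes of the respiratory chain (46 tested) gave 0 calls in edgeR and DESeq2, with 5, 2 and 1 genes at an unadjusted p under 0.05 and medians of -0.11, -0.01 and 0.01. Lysosome genes had 1 raised of 35, the proton pump subunit Atp6v1h, with a median of 0.37 (0.35 to 0.41 without a library) and 21 of 35 higher in both KPT-330 libraries. Immediate early genes had 1 raised of 23, Atf3, which is also on the stress list, with a median of 0.42 and 13 higher. Cholesterol synthesis genes had 0 calls of 26 in edgeR, 1 lowered in DESeq2, 12 at an unadjusted p under 0.05, a median of 0.38 and 17 higher. Over all genes 0.866% were raised and 24.7% were higher in both KPT-330 libraries. In each of the lysosome, immediate early and cholesterol lists 1 gene was lower in both. Glycolysis genes had 2 raised and 1 lowered of 22.

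To see which changes held within a cell class, the day 6 cells were clustered and classes were named from fixed markers, all of which were then left out of the calls within classes. Cells in Paneth-like clusters numbered 262 and 319 in control and 437 and 463 with KPT-330, goblet-like cells 315, 283, 146 and 172, enteroendocrine-like cells 246, 254, 59 and 230, stem-like cells 247, 390, 37 and 88, and enterocyte-like cells 90, 29, 193 and 26. These numbers set the depth of each test, and since marker genes differed between the groups they were not compared. The stem-like cluster was led by Notum, Cdh13 and Clu and held none of its own markers among its 10 leading genes. The larger goblet-like cluster had a mean score of 0.594 over the goblet markers and 0.474 over the Paneth markers. The Paneth marker Clps was among its leading genes. In control replicate 1 most Paneth-like cells (233 of 262) lay in a cluster other than that of the remaining libraries, and in KPT-330 replicate 1 most goblet-like cells (81 of 146) did. Doublets were not called again.

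Xpo1 was raised in each of the 5 classes tested. In Paneth-like cells it was at 36.4 and 26.9 UMIs per 1000000 UMIs of the class in control and at 86.3 and 101 with KPT-330 (log2 change 1.65, SE 0.21, edgeR adjusted p = 0.000104). In stem-like cells it was at 69.1 and 76.7 against 267 and 323 (2.19, SE 0.21), in enteroendocrine-like cells at 87.8 and 63.9 against 189 and 356 (1.95, SE 0.23), in enterocyte-like cells at 36.1 and 33.8 against 93.1 and 162 (1.92, SE 0.32) and in goblet-like cells at 35.7 and 43.9 against 94.9 and 111 (1.47, SE 0.23). The groups did not overlap in any class, and the difference between classes was not tested. Slc16a6, which had not passed over all cells, was raised in Paneth-like (1.23, SE 0.21), enteroendocrine-like (2.06, SE 0.26) and stem-like cells (1.95, SE 0.34). Arrdc3 was raised in enteroendocrine-like (1.39, SE 0.21) and stem-like cells (1.64, SE 0.24) and had log2 changes of 0.47 (SE 0.19) and 0.26 (SE 0.23) in Paneth-like and goblet-like cells.

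**Figure D3:**
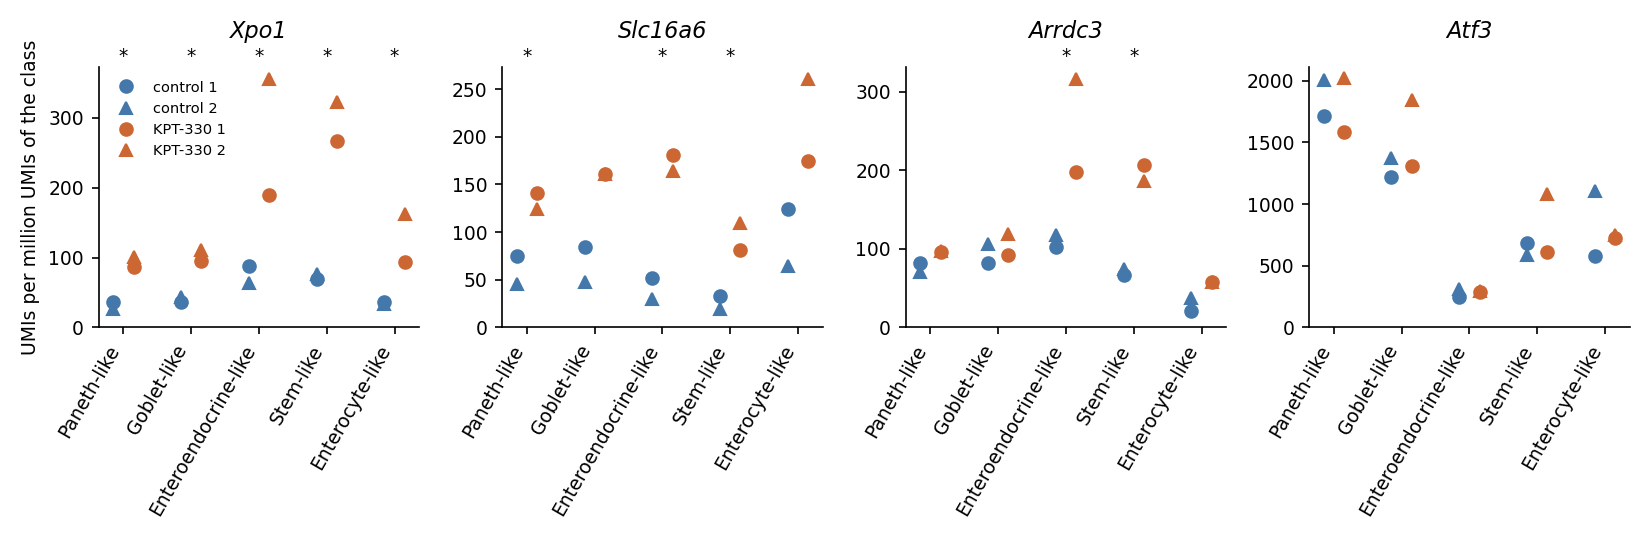
Level of Xpo1, Slc16a6, Arrdc3 and Atf3 in each day 6 library within 5 classes of cells, in UMIs per 1000000 UMIs of the class (circles, replicate 1; triangles, replicate 2; blue, control; orange, KPT-330; asterisk, past the threshold in edgeR). Xpo1 is higher with KPT-330 in every class, while the Atf3 values of the groups overlap in all 5 classes.

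Of the 12 stress genes raised over all cells, none was called in Paneth-like, goblet-like, stem-like or enteroendocrine-like cells. Only Vldlr was called raised in enterocyte-like cells. Values of 5 of the 12 are given for Paneth-like cells. Atf3 in Paneth-like cells was at 1718 and 2006 in control and at 1584 and 2019 with KPT-330, a log2 change of 0.07 (SE 0.19, edgeR adjusted p = 0.980). Nupr1 was at 3091 and 3205 against 2826 and 3802 (0.19, SE 0.19). The libraries overlapped for both genes. In enteroendocrine-like cells Atf3 was at 243 and 315 against 290.0 and 292, below its level in Paneth-like cells in every library. Ddit3 in Paneth-like cells was at 60.8 and 50 against 77.8 and 93.7 (0.73, SE 0.19, edgeR adjusted p = 0.159). Slc3a2 and Gdf15 had log2 changes of 0.72 and 0.97 in these cells and did not pass either. Of the 100 genes raised over all cells, 94 were tested in Paneth-like cells and 91 had a positive log2 change there, with a median of 0.50, against 1.06 over all cells, and 28 of the 30 lowered genes tested there had a negative one, with 50.1% of all genes positive. These shares are descriptions, since the Paneth-like cells are part of the summed cells that chose the genes.

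In Paneth-like cells, 7 genes were raised and 11 lowered of 8952 tested (0.0782% and 0.123%, together 0.201%), and 4 and 26 with each cell counted equally in limma. Besides Xpo1 and Slc16a6 the raised genes with the smallest p were Syt7, a synaptotagmin of regulated secretion, at 25.7 and 28.9 against 50.5 and 66.1, the phosphate transporter Slc20a1, and Cyba, a subunit of NADPH oxidases. Pnliprp2 was lowered, at 1342 and 1643 against 277 and 381 (log2 change -2.07, SE 0.19, edgeR adjusted p = 3.63e-06), as was the related Pnliprp1 at 30.8 and 33.7 against 4.72 and 5.63. Anpep, an aminopeptidase of the cell surface, was lowered in Paneth-like cells at 209.8 and 258 against 54.7 and 35.3 (-2.22, SE 0.23), in goblet-like cells at 234 and 354 against 82.7 and 44.0 (-2.13, SE 0.30) and in stem-like cells at 1069 and 1544 against 278 and 410.0 (-1.74, SE 0.25). The groups were apart in all 3 classes. Cyp2e1 and Rnase1 were also lowered in Paneth-like and goblet-like cells, but each is among the 10 leading genes of a cluster. The Paneth-like count was 111 without KPT-330 replicate 1, 39 without KPT-330 replicate 2 and 35 without control replicate 2.

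Enteroendocrine-like cells gave 41 raised and 56 lowered of 8504 genes (0.482% and 0.659%, together 1.14%). The genes named for this class, the next and the stem-like one were picked after their values were seen. Etv1, a transcription factor, was at 60.3 and 68.3 against 157 and 196 (log2 change 1.60, SE 0.23) and Gast, the hormone gastrin, at 24.7 and 14.9 against 64.4 and 110.1 (2.19, SE 0.32). Igfbp4 was at 100.2 and 84.7 against 16.1 and 9.58 (-2.94, SE 0.40), Wif1, a Wnt antagonist, at 174 and 143 against 32.2 and 51.1 (-1.76, SE 0.27), and Pax4 at 111 and 190.1 against 8.06 and 28.7 (-2.61, SE 0.37). The treated libraries lay apart from the controls in each of these genes. Gif had 82 UMIs in control and 0 with KPT-330 in these cells, which is at least 8.60-fold lower when 3 counts over the group are taken as the floor. Vim, one of the fibroblast markers, was lowered here too, at 285 and 141 against 24.2 and 43.1 (-2.50, SE 0.38). KPT-330 replicate 1 held 59 of these cells, and the count of calls was 46 without control replicate 1 and 60 without KPT-330 replicate 2.

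Enterocyte-like cells gave 43 raised and 38 lowered of 6760 genes (0.636% and 0.562%, together 1.2%). The lowered genes named here act on foreign compounds and oxidants and are no count of such genes. Gstm4, a glutathione transferase, was at 524 and 526 against 56.1 and 92.7 (log2 change -2.73, SE 0.27, edgeR adjusted p = 9.23e-05). Cbr3, a carbonyl reductase, was at 360.3 and 270.4 against 44.4 and 52.1 (-2.52, SE 0.29), Ugt2b5, a glucuronosyltransferase, at 342 and 349 against 55.0 and 34.8 (-2.52, SE 0.30) and Nqo1, a quinone reductase, at 188 and 177 against 52.9 and 63.7 (-1.45, SE 0.28). The groups were well apart in these 4 genes. Guca2a, the intestinal peptide guanylin, was raised, at 121 and 93.9 against 563 and 689 (2.68, SE 0.26). These values rest on 29 cells in control replicate 2 and 26 in KPT-330 replicate 2, and the count of calls was 13 without control replicate 1, 28 without control replicate 2, 122 without KPT-330 replicate 1 and 414 without KPT-330 replicate 2. The median depth of the enterocyte-like cells was 14204 and 8388 UMIs in control and 4035 and 5832 with KPT-330. The share of cells with a UMI of the Paneth gene Lyz1 at 1000 UMIs per cell differed too. It was 26.7% and 6.90% of enterocyte-like cells in control and 90.7% and 38.5% with KPT-330. The part of Paneth transcripts in these cells in the calls was not tested.

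Stem-like cells gave 7 raised and 3 lowered of 8458 genes (0.0828% and 0.0355%, together 0.118%), and goblet-like cells 4 and 3 of 7753 (0.0516% and 0.0387%, together 0.0903%). Gif stood highest in stem-like cells, at 144 and 121 in control and at 10.9 and 13.3 with KPT-330, the latter from 2 and 4 UMIs (log2 change -3.29, SE 0.43). Cps1, the enzyme that starts the urea cycle, had 274 UMIs in control and 3 with KPT-330 in these cells, a ratio of 12.9 per UMI of the class with a 95% counting interval of 4.35 to 62.7. Lypd8 was raised here, at 141 and 165 against 239 and 383 (1.21, SE 0.21). In goblet-like cells Car8 was raised, at 62.7 and 68.0 against 117 and 172 (1.22, SE 0.23). The stem-like count was 31 without control replicate 1, 24 without control replicate 2 and 22 without KPT-330 replicate 1, and the goblet-like count ran from 11 to 98 when a library was left out. Of the cells of the cycle, 12 remained in KPT-330 replicate 1, and no test was made.

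The endpoint could be set beside days 0.25 to 4, whose 6 KPT-330 and 5 control libraries share no sample with day 6. There, with a term for day, 1214 genes were raised (9.63%) and 1291 lowered (10.2%) of 12612 tested, 19.9% in all. Of the 100 genes raised at day 6, 84 were also raised earlier (against 10.2% of the genes tested at both, which were 20.7% in either direction) and all 100 had the same sign, with medians of 1.06 at day 6 and 0.69 earlier. Of the 70 lowered genes, 39 were lowered earlier (against 10.5%) and 69 had the same sign, with medians of -1.52 and -0.80. In the other direction, the genes called at day 6 made up 7.15% of the genes raised earlier and 3.22% of those lowered earlier. The exception in sign was Acot1, an acyl-CoA thioesterase, with -1.21 at day 6 and 0.15 earlier.

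Xpo1 changed by 1.40 at day 6 and 1.52 earlier, Chac1 by 1.60 and 1.68, Mki67 by -1.45 and -0.85, Gif by -3.95 and -2.58, and Wnt6 by -1.97 and -0.13. Mitotic genes had 8 calls at day 6 and 3 earlier of 34, with medians of -1.44 and -0.61, S phase genes 3 and 25 of 37, with medians of -0.76 and -0.74, and enterocyte genes 2 and 22 raised of 33. Whether such changes differed from the earlier ones was tested by an interaction term over all libraries from day 0.25 to day 6. Of 12812 genes 0 passed in edgeR and 1 in DESeq2, 700 had an unadjusted p under 0.05, and the smallest adjusted p was 0.379, for Acot1. Without KPT-330 replicate 1 of day 6 there were 7. No gene is therefore described as particular to day 6.

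**Figure D4:**
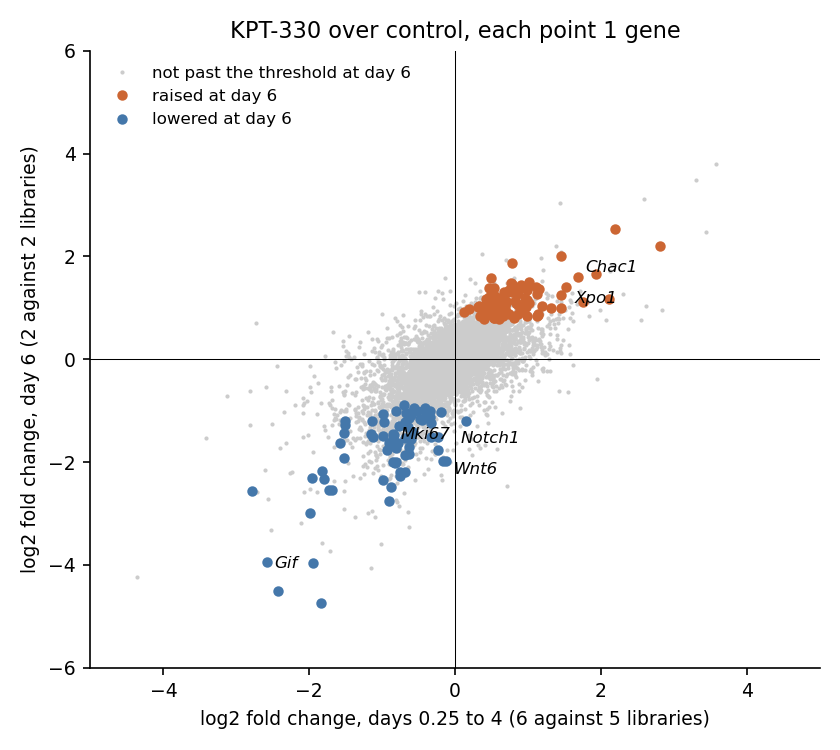
Log2 fold change of KPT-330 over control at days 0.25 to 4 (x axis) and at day 6 (y axis) for 11505 genes tested in both, 1 point per gene (orange, raised at day 6; blue, lowered at day 6; grey, neither). All raised genes lie to the right of 0 and all but 1 lowered gene lie to the left, with Wnt6 and Notch1 close to 0 on the x axis.

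For 14 genes that the study names for its single-cell data, the share of cells with at least 1 UMI was compared after each cell had been thinned to 1000 UMIs, which left out 0 cells. Xpo1 was found in 6.16% and 6.21% of control cells (95% Wilson intervals 4.96 to 7.62 for the first) and in 8.42% and 15.3% of cells with KPT-330. The KPT-330 libraries lay above the controls and differed from each other by more than the controls did. Slc16a6 was found in 5.53% and 3.32% against 12.8% and 13.2%, and Atf3 in 42.2% and 40.9% against 57.9% and 50.6%. Mki67 was found in 7.74% and 7.37% against 4.15% and 1.80%, Lgr5 in 12.3% and 14.6% against 4.04% and 7.29%, Trp53 in 8.29% and 8.09% against 3.17% and 4.1%, and Cdk4 in 24.9% and 29.8% against 9.95% and 19.4%. In all, 6 genes were higher and 6 lower with KPT-330 without overlap of the libraries, and Ccnd1 and Cdkn1a overlapped. Over all 11548 genes, 5.27% were higher and 44.3% lower without overlap on this measure, so the lower genes stand near the background. With 2 libraries a group the two-sided exact permutation test cannot go below p = 0.333, the value of each of these 12.

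Lyz1 was found in 60.5% and 52.0% of control cells and in 91.9% and 66.6% of cells with KPT-330. Cells that should lack it had it too, since 32.5% and 28.3% of enteroendocrine-like cells in control and 55.9% and 24.8% with KPT-330 carried a Lyz1 UMI at the same depth, so these shares count cells with a UMI and not cells that express the gene. Without thinning, 5 of the 14 genes were without overlap, and Lyz1 and Xpo1 were not among them. Intervals cover counting error only.

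**Figure D5:**
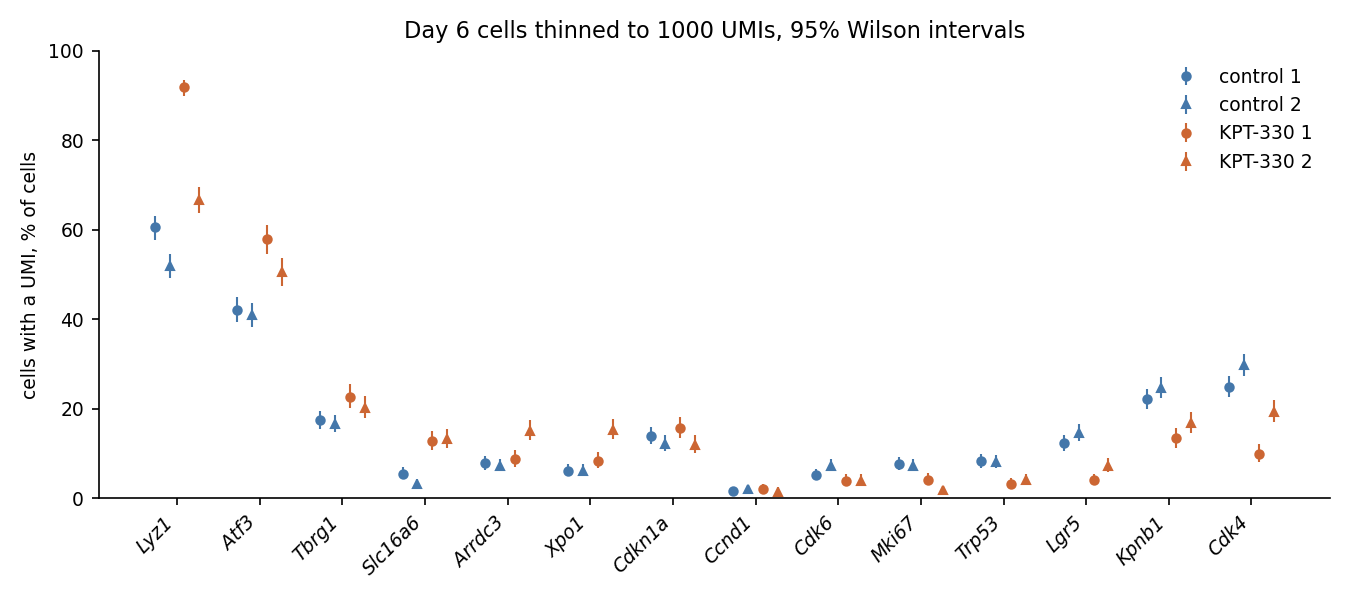
Share of day 6 cells with at least 1 UMI of each of 14 genes after thinning to 1000 UMIs per cell, with 95% Wilson intervals for counting error (circles, replicate 1; triangles, replicate 2; blue, control; orange, KPT-330). Lyz1 to Xpo1 sit higher with KPT-330, and Cdk6 to Cdk4 sit lower, while Cdkn1a and Ccnd1 overlap.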

How the data were processed

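The deposited values are UMI counts per gene and cell, with no normalization. Per the labels and the study's methods, the authors split the reads by sample with bcl2fastq, mapped them to mm10 using STAR, and counted distinct UMIs with Drop-seq tools. They removed doublets and cells low in housekeeping genes, and the cells used here are those named in the header of their merged table. No other step was taken against doublets. Libraries were grouped by their labels, and the members and gene lists were chosen with earlier results of these data known.

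Counts were summed per library and tested in R 4.3.3 with edgeR 4.0.16 (TMM factors, filterByExpr, quasi-likelihood, Benjamini-Hochberg adjustment over all genes tested, threshold 0.05), without a block, since the labels do not tie replicate numbers together across groups. Cells were clustered with scanpy 1.11.5 and leidenalg 0.10.2 in Python 3.11.15 from 2000 variable genes (15 components, 20 neighbours, resolution 0.5). A class was tested with at least 20 cells in each library. Positions came from GENCODE M21 and promoter windows from RefSeq on GRCm38.p6. DESeq2 1.42.0, limma 3.58.1, other filters and scalings, and leaving out each library were alternatives. Named genes were 14 that the study names, the 10 raised and 10 lowered with the smallest p whose libraries did not overlap, leaving out predicted-gene symbols, the first and the 3 with the smallest p of each list, and up to 5 in each direction per class. A gene that fell under this rule is not reported here. Others named were chosen after their values were seen. On simulated counts for 11548 genes, edgeR called 49 of 50 genes raised by a log2 change of 2 and 22 of 50 raised by 1. It called 41 of 50 lowered by 2 and 17 of 50 lowered by 1, with 18 wrong calls. Each gene was drawn on its own, without the shifts in cell types and mitochondrial share seen between the real libraries. Recovery under such shifts was not tested.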

Additional observations from a re-analysis of the deposited data

How the results depend on the processing

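All 170 genes called over all cells kept their direction under every alternative in which they were tested. The number called was 349 with DESeq2, 1060 with no count filter, 2 with a stricter filter, 26 with all barcodes inside the limits on genes and UMIs, 46 with each cell counted equally in limma (1 raised and 45 lowered), and 10 to 1254 without a library. With the replicate block it was 2061. The differences between replicates 1 and 2 correlated at 0.48 between the day 6 groups and from -0.03 to 0.13 between other groups. The labels do not say whether day 6 libraries of the same number belong together. Whether they are paired was not tested, and the main fit treats them as unpaired. In Paneth-like cells (18) the number was 9 with DESeq2, 30 with limma (4 raised and 26 lowered), 29 by highest marker score per cell, 69 with no filter, 10 with a stricter one, 185 with the replicate block and 19 to 111 without a library. In enterocyte-like cells (81) it was 38, 241, 39 and 198 with DESeq2, no filter, a stricter filter and the replicate block, and 13 to 414 without a library. In enteroendocrine-like cells (97) it was 14 with DESeq2, 203 with the replicate block and 46 to 136 without a library. In goblet-like cells (7) it was 39 with no filter, 121 with the replicate block and 11 to 98 without a library, and in stem-like cells (10) it was 58, 6 and 40 with no filter, a stricter filter and the replicate block, and 8 to 31 without a library. The difference between day 6 and earlier gave 1 gene with DESeq2 and 0 to 7 without a library. The earlier count of 2505 was 1222 without day 2, 619 without day 3 and 1087 without day 4. The 12 genes whose shares of cells did not overlap were 5 without thinning and 12 to 14 without a library. Ccnd1 and Cdk6 changed sign without KPT-330 replicate 2, with log2 changes from -0.59 to 0.27 and from -0.49 to 0.036 over the fits without a library. The cause of these changes was not tested. Counting each cell equally moved the median of all genes to -0.37, where the medians were 0.25 for stress response, 0.41 for Paneth, 0.01 for endoplasmic reticulum, 0.32 for goblet and -1.80 for mitosis genes. The fit of Paneth-like cells over all 17 libraries was not run. Alternatives for the other classes were chosen after seeing the data. With 2 libraries a group, the spread between libraries limits every call.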

Other observations

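Further genes of amino acid metabolism outside the lists were raised at day 6, and apart from Gpt2, one of the raised genes with the smallest p, they were chosen after their values were seen. Gpt2, a mitochondrial alanine aminotransferase, was at 44.7 and 45.2 CPM in control and at 95.8 and 110.1 CPM with KPT-330 (log2 change 1.20, SE 0.15). Got1, an aspartate aminotransferase, was at 29.0 and 26.0 against 57.2 and 55.3 CPM. Pycr1, of proline synthesis, was at 37.9 and 47.5 against 76.4 and 98.3 CPM, Aldh1l2, of mitochondrial folate metabolism, at 21.8 and 30.4 against 70.0 and 117 CPM, and Cth, which makes cysteine, at 21 and 22.4 against 38.3 and 48.9 CPM. Aldh1l2 is also among the 10 leading genes of a cluster of Paneth-like cells. Eif2ak3, the kinase PERK that phosphorylates eIF2alpha, was at 61.1 and 66.4 against 131 and 125 CPM. The libraries of the groups did not overlap in these 6 genes, and each lost its call without control replicate 1 or control replicate 2.

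A few genes of lysosomal proteins were also called raised, the proteases Tpp1, at 45.1 and 49.4 against 93.2 and 101 CPM, and Lgmn, at 29.7 and 21.4 against 64.7 and 55.5 CPM. So were subunits of the proton pump that acidifies the compartment, with Atp6v1a at 70.0 and 60.1 against 112 and 121 CPM and Atp6ap2 at 109 and 108 against 192 and 219 CPM. These 4 were picked after their values were seen and stand for no wider group.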
